A study of Mus musculus with 20 samples.

Results

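The genes described here are the 29 mouse genes of a module for cholesterol and fatty acid synthesis, taken by symbol from the 47643 Ensembl gene identifiers of the deposited count table. They were 18 enzymes of sterol synthesis, 5 regulators or carriers of sterols and 6 enzymes that make or modify fatty acids, and all 29 had a value in the count table and in the FPKM table. Mouse embryonic fibroblasts (MEFs) of strain B6DBA were turned with small molecules into chemically induced pluripotent stem (CiPS) cells, and RNA was sequenced along the way. The libraries analysed here were 1 of MEFs, 2 of day 16 cultures, 2 each of untreated cultures at days 20, 24 and 28, and 2 each of cultures with crotonic acid at days 20, 24 and 28. Crotonic acid, a short-chain unsaturated fatty acid, was given at 6 to 8 mM from day 16 to day 28, so every treated culture shared the first 16 days with the untreated ones. Established cells were 2 CiPS lines made with crotonic acid, 1 CiPS line from the three-step method and the embryonic stem (ES) line OG4 of the same strain, and a line made with BrdU was not analysed here. MEFs, the three-step line and ES cells were thus 1 library each, and nothing in the labels said whether numbered replicates came from separate cultures, so p-values measured only the spread between these samples. The stated question of the design was how crotonic acid promotes the formation of CiPS cells.

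Cholesterol is built from acetyl-CoA through mevalonate and squalene, and the last steps turn lanosterol into cholesterol. The transcription factors SREBP1 and SREBP2, made from Srebf1 and Srebf2, switch on most of these enzymes when membranes are short of sterols. When sterols are plentiful, INSIG proteins hold the escort protein SCAP and its SREBP cargo in the endoplasmic reticulum. Fatty acid synthesis starts from the same acetyl-CoA, which ACLY supplies from citrate, and runs through acetyl-CoA carboxylase and fatty acid synthase to elongases and desaturases.

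Libraries held 17475848 to 26609755 counted reads. Levels below are CPM, counts scaled to library size with TMM factors, and each change is a log2 difference ± standard error from edgeR's quasi-likelihood test with Benjamini-Hochberg adjustment over all genes tested; a gene is called changed at an adjusted p under 0.05. The labels were checked against summed marker levels. Pluripotency markers summed to 3.06 CPM in MEFs, 36.9 to 64.3 at day 16, 401 to 411 in untreated day 28 cultures and 3360 to 4068 in the established lines. Fibroblast markers summed to 64460 CPM in MEFs, 1678 to 5870 in all reprogramming cultures and 10470 to 15750 in CiPS and ES lines. In bulk RNA, fewer cells of a type and less RNA per cell cannot be told apart.

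Compared per length as FPKM, the desaturase genes were the most abundant members. Scd2 had a median of 227 FPKM over the 19 libraries (91.2 in ES cells to 370 in MEFs), and Scd1 had 129 FPKM (24.1 in ES cells to 250 in a day 20 culture with crotonic acid). Acly followed with 73.0 FPKM, Srebf2 with 54.0 and Hmgcs1 with 52.0. The lowest medians were those of Acaca (4.18 FPKM), Lss (3.46 FPKM) and Fdps (0.363 FPKM). For 14 of the 18 sterol enzymes the highest FPKM of all libraries was that of MEFs, and the same held for Insig1, Srebf1, Srebf2 and Scd2. The exceptions among sterol enzymes were Pmvk, Tm7sf2, Ebp and Dhcr7, and among the other members Scap, Stard4, Acaca, Fasn, Acly, Scd1 and Elovl6.

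**Figure D1:**
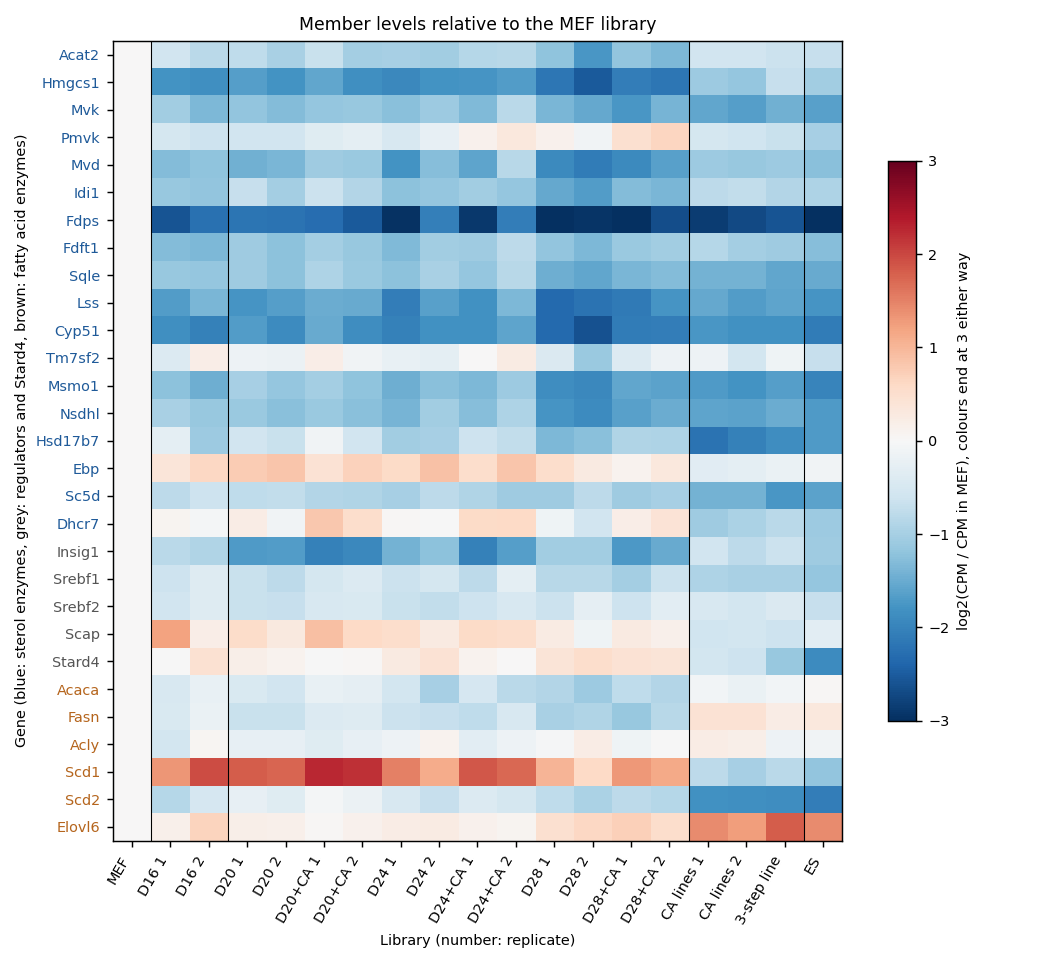
Level of each of the 29 genes in each library, as log2 of its CPM over its CPM in MEFs (blue lower, red higher, colours end at 3 log2 units either way). Most sterol enzymes are blue in every culture and line, Scd1 is red in all 14 reprogramming libraries, and Elovl6 has its darkest red in the established lines.

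Some members share exon bases or near-identical sequence with other genes. Reads were not examined for sharing, and the sources used here do not state whether counting used strand. Fdps had only 843 reads over all libraries, overlaps the gene Gm43738 on the same strand and has processed pseudogene copies of up to 98.9% identity, so its values are uncertain. Fdft1 shares 774 exon bases with Ctsb on the opposite strand, a gene with 748054 reads over all libraries against 33076 for Fdft1. Tm7sf2 shares 532 exon bases with Vps51 on the same strand. Scap shares 985 with 5830462I19Rik and Hmgcs1 shares 557 with Gm48342, both on the opposite strand. Lss, Cyp51, Srebf1, Idi1 and Elovl6 share shorter stretches with genes on the opposite strand, and Acat2, Acaca and Idi1 have near-identical stretches in Acat3 or Tcp1, in the pseudogene Gm5182 and in the pseudogene Gm13502.

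Promoters are shown for 4 members because the data turn on them: Hmgcs1 as a member whose promoter window held the sterol element searched for, and Insig1, Pmvk and Dhcr7 as the members called with crotonic acid. Each line gives the 180 bases before the first annotated transcript start, on the plus strand of GRCm38.p6 from RefSeq, with matches to the 3 motifs in capitals.
Hmgcs1 (chr13:119690171-119690350): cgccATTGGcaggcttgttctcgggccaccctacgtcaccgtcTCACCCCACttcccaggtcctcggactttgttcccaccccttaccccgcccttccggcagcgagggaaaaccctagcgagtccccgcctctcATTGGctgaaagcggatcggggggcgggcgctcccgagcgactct
Insig1 (chr5:28071183-28071362): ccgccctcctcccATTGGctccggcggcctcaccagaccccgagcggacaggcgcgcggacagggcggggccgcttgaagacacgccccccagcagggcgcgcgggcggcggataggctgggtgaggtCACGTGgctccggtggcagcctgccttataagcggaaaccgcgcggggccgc
Pmvk (chr3:89454361-89454540): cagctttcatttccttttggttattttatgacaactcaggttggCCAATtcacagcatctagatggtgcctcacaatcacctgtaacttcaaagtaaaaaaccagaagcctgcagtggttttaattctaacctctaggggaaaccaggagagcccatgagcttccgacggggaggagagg
Dhcr7 (chr7:143822965-143823144): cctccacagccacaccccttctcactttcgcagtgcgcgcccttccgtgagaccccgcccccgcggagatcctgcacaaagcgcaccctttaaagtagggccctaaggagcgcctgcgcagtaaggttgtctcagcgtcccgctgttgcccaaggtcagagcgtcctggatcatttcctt
Both strands were searched for CCAAT, the motif of the factor NF-Y, which appears above as its reverse complement where it lies on the minus strand. The sterol element core searched for was TCACNCCAC. The E-box searched for was CACGTG, and no matches overlap in these stretches. RefSeq windows from 250 bases before to 50 after the start were given for 23 of the 29 members. CCAAT lay in the windows of 19 of those 23 genes and of 41.1% of all 27025 genes, and the 4 without it were Acat2, Scap, Acaca and Elovl6. CACGTG lay in 5 of the 23 (Hsd17b7, Sc5d, Dhcr7, Insig1 and Scap) against 8.09% of all genes, and TCACNCCAC in 1, Hmgcs1, against 1.44%. A match is a string of letters and no measured binding site, and the absence of one says only that these letters are not in the window.

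Between MEFs and day 16, transcripts of 14 of the 18 sterol enzymes fell while Scd1 rose. Of the 29 members 18 were called, 1 higher and 17 lower, against 32.7% of all genes called, 17.4% higher and 15.3% lower. The sterol enzymes gave 14 lower, none higher and 4 not called, with a median log2 change of -1.16 against 0.030 over all genes. Of the regulators Insig1 and Srebf2 fell, and of the fatty acid enzymes Scd2 fell. This comparison rests on 1 MEF library.

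The early enzymes were lower from the start of the route. Hmgcs1, which makes HMG-CoA, had 592 CPM in MEFs and 170.4 and 166 in the day 16 libraries (-1.81 ± 0.20, adjusted p = 2.47e-05). Idi1, which isomerises isopentenyl diphosphate, went from 49.1 CPM to 22.2 and 21.4 (-1.17 ± 0.17, adjusted p = 0.000175). For both genes the day 16 libraries lay close together and far below MEFs. The other early enzymes fell as well: Mvk by -1.19 ± 0.21, Mvd by -1.25 ± 0.25, Pmvk by -0.57 ± 0.16 and the thiolase Acat2 by -0.68 ± 0.20. Fdps, the farnesyl diphosphate synthase, was called at -2.40 ± 0.41, with the uncertainty given above.

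The squalene and lanosterol steps fell too. Fdft1, squalene synthase, went from 163 CPM in MEFs to 65.9 and 63.5 (-1.33 ± 0.16, adjusted p = 5.76e-05). Sqle, squalene epoxidase, went from 228 CPM to 104 and 102 (-1.15 ± 0.16, adjusted p = 0.000195). Lss, which closes the rings to lanosterol, went from 120.4 CPM to 37.7 and 46.3 (-1.52 ± 0.21, adjusted p = 0.000182). All 3 of these genes were lower in both day 16 libraries. Cyp51, the lanosterol demethylase, had 384 CPM in MEFs and 107 and 94.4 at day 16, a 3.82-fold fall (-1.93 ± 0.17, adjusted p = 6.48e-06), the smallest p of all members. Msmo1, the methylsterol oxidase, went from 180.1 CPM to 76.4 and 65.5 (-1.34 ± 0.15, adjusted p = 3.69e-05). Nsdhl, which acts with Msmo1, was called at -1.05 ± 0.18 and the desaturase Sc5d at -0.70 ± 0.17. The late enzymes Tm7sf2, Hsd17b7, Ebp and Dhcr7 did not pass the test: Dhcr7, which reduces the last double bond, had 65.6 CPM in MEFs and 69.8 and 63.1 at day 16.

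Among the regulators Insig1 had 247 CPM in MEFs and 142 and 133 at day 16 (-0.85 ± 0.16, adjusted p = 0.00139). Srebf2 had 392.1 CPM in MEFs and 262 and 298 at day 16 (-0.48 ± 0.17, adjusted p = 0.0419). Srebf1 had 167 CPM in MEFs and 109 and 129 at day 16 and was not called (-0.49 ± 0.19, adjusted p = 0.0695). The escort gene Scap and the sterol carrier gene Stard4 were not called either. The desaturases parted: Scd1 went from 261 CPM to 656 and 1013 (1.68 ± 0.27, adjusted p = 0.00045) and Scd2 from 2036 CPM to 1126 and 1436 (-0.67 ± 0.16, adjusted p = 0.00691). The ratio of Scd2 to Scd1 in FPKM was 6.91 in MEFs and 1.26 and 1.52 at day 16. Acaca, Fasn, Acly and Elovl6 did not pass the test.

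With scaling by total counts the median of all genes moved to 0.365 and 16 members were called, 4 higher (Ebp, Scap, Scd1 and Elovl6) and 12 lower, where 36.5% of all genes were. In a fit of the MEF and day 16 libraries alone 3 members were called, Hmgcs1, Lss and Cyp51, all lower. In that fit 10.8% of all genes were called in either direction, a share near that of the members. By direction, 1099 of 16897 genes were called higher and 722 lower. Endoderm markers, 7 of 7 called higher, summed to 2712 CPM in MEFs and 7734 to 10180 at day 16. Macrophage markers, 7 of 7 called lower, summed to 148.7 CPM in MEFs and 7.66 to 15.8 at day 16, and adipocyte markers summed to 4.66 CPM in MEFs and 1.5 to 3.87 at day 16; their part in the result was not tested. Of 31 other genes of lipid synthesis, uptake and export, 5 were called higher and 5 lower, with a median log2 change of -0.09. The cholesterol esterifying enzyme gene Soat1 rose by 1.60 ± 0.24 on the log2 scale (adjusted p = 0.000306), and the lipid droplet gene Pnpla3 had 0.188 CPM in MEFs and 25.1 and 22.3 at day 16 (6.94 ± 0.62, adjusted p = 6.54e-06).

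**Figure D2:**
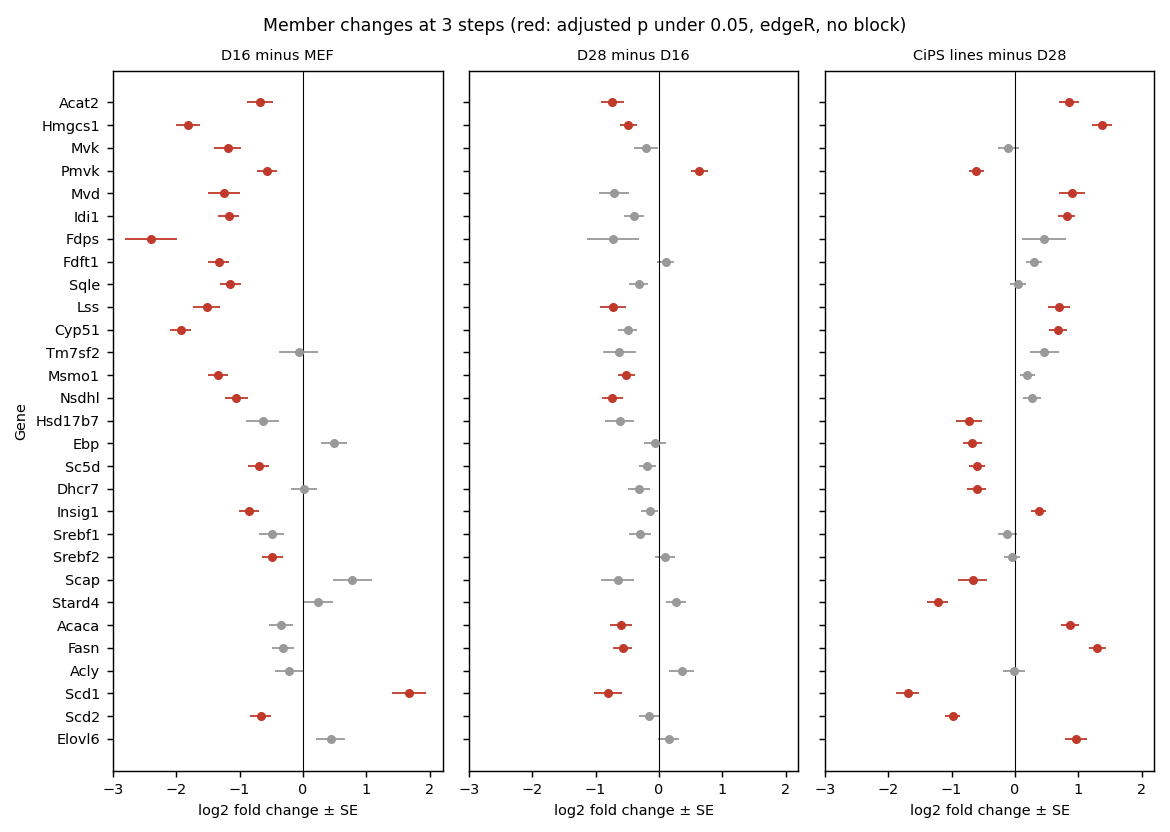
Log2 change ± standard error of each member at 3 steps, day 16 minus MEFs, untreated day 28 minus day 16, and the 3 CiPS lines minus untreated day 28 (red: adjusted p under 0.05, edgeR without the replicate block). The first panel has 17 red points left of 0 and 1 right of it, the second 8 and 1, and the third 9 and 10; neighbouring panels share libraries.

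After day 16 the first member to change in untreated cultures was Insig1. It had 142 and 133 CPM at day 16 and 75.9 and 77.6 at day 20 (-0.83 ± 0.14, adjusted p = 0.0128), the only member called at day 20, where 2.23% of all genes were called and 0.575% were called lower. It had 92.3 and 105 CPM at day 24 and 119.5 and 121 at day 28, so the fall was largest at day 20 and both later days lay between. At day 24 no member was called by edgeR (8.08% of all genes were), and 2 had an unadjusted p under 0.05. DESeq2 called Insig1 alone of the members, and 12.3% of all genes. With the replicate number as a block Insig1 was called (-0.45 ± 0.11, adjusted p = 0.013), where 20.5% of all genes were called and 9.47% called lower. Without day 16 replicate 2, 2 members were called at day 24, Hsd17b7 and Scap, both lower, where 9.3% of all genes were. The day 20 call of Insig1 was lost when either day 20 library was left out and in a fit of days 16 and 20 alone.

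By day 28 without crotonic acid 5 of the 18 sterol enzymes had fallen further than at day 16, and Pmvk had risen. Of the 29 members 9 were called, 1 higher and 8 lower, against 16.9% of all genes, 10.1% higher and 6.8% lower. With the replicate block 14 were called, 1 higher and 13 lower, against 31% of all genes, 16.8% higher and 14.2% lower; the block added Mvd, Idi1, Cyp51, Hsd17b7 and Scap. Both day 28 libraries lay below both day 16 libraries for 20 members, 15 of them among the 18 sterol enzymes, against 24.8% of all genes. The median log2 change of the sterol enzymes was -0.49 against 0.014 over all genes.

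Nsdhl had 28.7 and 25.9 CPM at day 16 and 16.7 and 15.2 at day 28 (-0.73 ± 0.17, adjusted p = 0.0135). Acat2, which joins acetyl-CoA units ahead of HMG-CoA, had 79.3 and 67.6 CPM at day 16 and 50.7 and 34.9 at day 28 (-0.73 ± 0.18, adjusted p = 0.0193). Lss had 37.7 and 46.3 CPM at day 16 and 23.7 and 25.7 at day 28 (-0.72 ± 0.20, adjusted p = 0.0336). In each case the day 28 libraries did not overlap with day 16. Msmo1 went from 76.4 and 65.5 CPM to 49.1 and 47.2 (-0.51 ± 0.13, adjusted p = 0.0248), and Hmgcs1 from 170.4 and 166 CPM to 131 and 103 (-0.48 ± 0.14, adjusted p = 0.0394). Pmvk, the kinase between Mvk and Mvd, went the other way, from 25.9 and 24.0 CPM to 40.5 and 34.7 (0.63 ± 0.13, adjusted p = 0.0098).

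Of the 6 fatty acid enzymes 3 fell over the same days and 3 were not called. Fasn, fatty acid synthase, had 298.5 and 355 CPM at day 16 and 208 and 218 at day 28 (-0.57 ± 0.15, adjusted p = 0.0242). Acaca, acetyl-CoA carboxylase, had 73.8 and 88.0 CPM at day 16 and 55.7 and 48.0 at day 28 (-0.60 ± 0.17, adjusted p = 0.0375). Scd1 had 656 and 1013 CPM at day 16 and 534 and 397 at day 28 (-0.80 ± 0.23, adjusted p = 0.0349), so the day 16 libraries differed more from each other than the lower of them did from day 28. Scd2, at 1192 and 1050.2 CPM on day 28, was not called (-0.15 ± 0.16), nor were Srebf1 with 93.9 and 93.7 CPM (-0.30 ± 0.18) and Srebf2 with 253 and 326 CPM (0.09 ± 0.16). Acly and Elovl6 were not called.

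Fewer members were called at day 28 when single libraries were left out: 4 without untreated day 28 replicate 1 (Acat2, Hmgcs1, Nsdhl and Scd1), where 12.6% of all genes were, and 1 without replicate 2 (Pmvk), where 8.55% were. Those shares count genes called in either direction, and shares by direction are not given for these fits. Each of these fits left 1 untreated day 28 library, so the member counts are not weighed against the shares. In a fit of days 16 and 28 alone none was called, where 2.46% of all genes were. Endoderm markers, 2 of 7 called higher and 6 of 7 with the block, summed to 12240 to 17030 CPM at day 28; their part in the result was not tested. Of 30 other pathway genes tested, 4 were called higher and 2 lower, with a median of 0.05; with the block 6 were higher and 4 lower. Mbtps1, a protease that cuts SREBPs, rose by 0.59 ± 0.12 (adjusted p = 0.00786) and the mitochondrial carboxylase gene Acacb by 1.13 ± 0.23 (adjusted p = 0.00898). Npc1, which exports cholesterol from lysosomes, rose by 0.60 ± 0.16 (adjusted p = 0.0304).

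**Figure D3:**
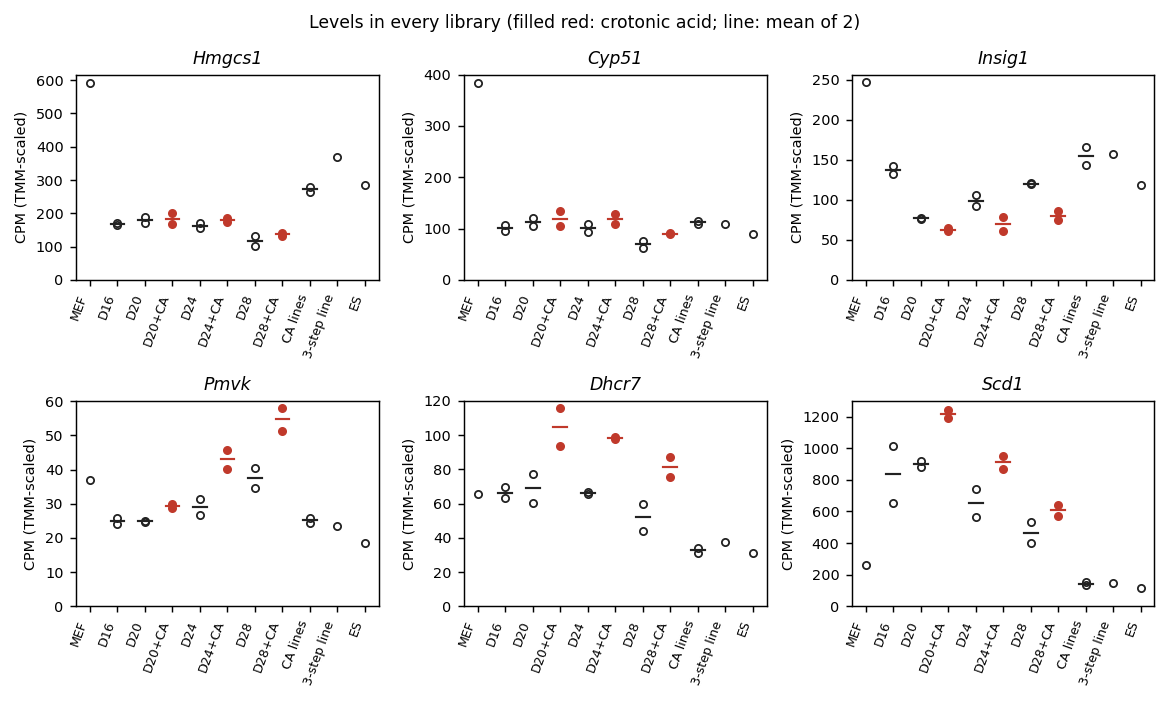
CPM of 6 members in every library (open points untreated or established cells, red points cultures with crotonic acid, lines the mean where a group has 2 libraries; each axis starts at 0). Hmgcs1 and Cyp51 are highest in MEFs, Insig1 is lowest in a day 20 culture with crotonic acid, and the red points of Pmvk, Dhcr7 and Scd1 lie above the open points of the same day.

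Crotonic acid moved 3 members when its effect was averaged over days 20, 24 and 28: Dhcr7 and Pmvk rose and Insig1 fell. Those were 2 higher and 1 lower of 29, against 1.04% of all genes, 0.604% higher and 0.431% lower. With the replicate block the same 3 were called, where 7.42% of all genes were, a share near that of the members. The other 26 members did not pass the test, and the median log2 effect was 0.14 over the sterol enzymes, 0.10 over the fatty acid enzymes and -0.011 over all genes.

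Dhcr7 had 77.0 and 60.6 CPM in untreated and 116 and 93.7 in treated day 20 cultures. At day 24 it had 67.0 and 65.6 CPM untreated and 97.5 and 98.97 treated, and at day 28 59.8 and 44.2 untreated and 75.4 and 87.0 treated. Treated and untreated libraries did not overlap on any day, and the mean effect was 0.60 ± 0.10 (adjusted p = 0.0255; with the block 0.60 ± 0.08, adjusted p = 0.00216). Pmvk had 24.7 and 25.1 CPM untreated and 28.7 and 30.1 treated at day 20. It had 26.7 and 31.3 CPM untreated and 40.3 and 45.8 treated at day 24, and 40.5 and 34.7 untreated and 51.4 and 58.2 treated at day 28. Again no day overlapped, and the mean effect was 0.44 ± 0.08 (adjusted p = 0.0306; with the block 0.44 ± 0.07, adjusted p = 0.00468). In the promoter stretches shown above, Pmvk held 1 CCAAT match and Dhcr7 none of the 3 motifs; the E-box of Dhcr7 counted above lies outside the stretch shown.

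Insig1 was lower with crotonic acid on each day. It had 75.9 and 77.6 CPM untreated and 60.5 and 64.6 treated at day 20, and 92.3 and 105 untreated and 61.0 and 78.8 treated at day 24. At day 28 it had 119.5 and 121 CPM untreated and 74.6 and 86.3 treated. The treated libraries lay below the untreated ones on all 3 days, and the mean effect was -0.47 ± 0.08 (adjusted p = 0.029; with the block -0.47 ± 0.06, adjusted p = 0.00193). The effect was -0.31 ± 0.14 at day 20, -0.51 ± 0.14 at day 24 and -0.58 ± 0.14 at day 28, and the difference between days 28 and 20 was -0.28 ± 0.19 and not called (adjusted p = 1). No member, and no gene of 17387, was called for that difference between days, and no member had an unadjusted p under 0.05; DESeq2 called no member.

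On single days edgeR called no member and no gene at all at days 20, 24 or 28 (0% of all genes); 2, 3 and 5 members had an unadjusted p under 0.05. DESeq2 called none at day 20, Pmvk at day 24 and Pmvk and Insig1 at day 28. Of all genes it called 0.104%, 0.449% and 0.443% on these days. With the replicate block Insig1 was called at day 28 (-0.59 ± 0.11, adjusted p = 0.0432), where 0.615% of all genes were called and 0.316% called lower, and none at days 20 and 24, where 0.0345% and 0.535% were. Dhcr7 and Pmvk at day 28 then had adjusted p of 0.0748 and 0.0802.

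Several members moved the same way without being called. Scd1 had 922 and 879 CPM untreated and 1243 and 1189 treated at day 20, 743 and 565 against 953 and 867 at day 24, and 534 and 397 against 641 and 572 at day 28. It did not overlap on any day, but its mean effect of 0.42 ± 0.13 did not pass (adjusted p = 0.182; with the block 0.0605). Treated libraries lay above untreated ones on all 3 days for 4 of the 29 members, Pmvk, Tm7sf2, Dhcr7 and Scd1, against 3.80% of all genes, and below them for Insig1 alone, against 2.54%. In all 6 pairs of libraries of the same day and replicate number 12 members were higher with crotonic acid, 9 of them sterol enzymes, against 11.5% of all genes, and 2, Insig1 and Acly, were lower, against 10.1%. At day 28 alone 13 of the 18 sterol enzymes did not overlap and were higher in treated cultures, against 16.4% of all genes; the untreated day 28 libraries behind that count are the same that were low against day 16.

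The SREBP genes and Scd2 were not called, with mean effects of 0.11 ± 0.10 for Srebf1, 0.10 ± 0.09 for Srebf2 and 0.11 ± 0.09 for Scd2. Srebf1 had 105 and 97.3 CPM untreated against 116 and 127 treated at day 20, 106 and 116 against 97.5 and 137 at day 24, and 93.9 and 93.7 against 82.1 and 106 at day 28, so it overlapped on days 24 and 28. Srebf2 had 248 and 241 CPM untreated against 281 and 286 treated at day 20, 249 and 237 against 255 and 283 at day 24, and 253 and 326 against 256 and 314 at day 28, where the libraries overlapped. Scd2, the most abundant member, had 1730.3 and 1577 CPM untreated against 1957 and 1801 treated at day 20, 1459 and 1257 against 1528 and 1414 at day 24, and 1192 and 1050.2 against 1175 and 1133 at day 28, with overlap on the later days.

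**Figure D4:**
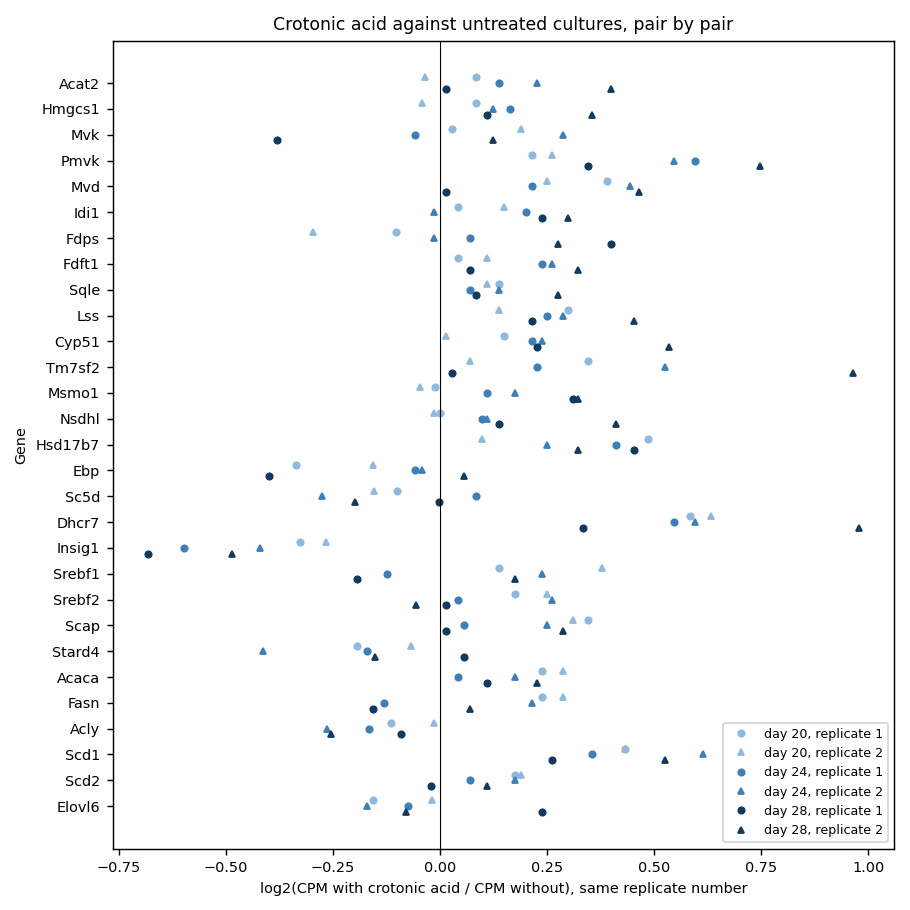
Log2 of CPM with over without crotonic acid for each member, in the 6 pairs of libraries of the same day and replicate number (shade: day, shape: replicate). All 6 points lie right of 0 for 12 members, among them Pmvk, Dhcr7 and Scd1, and left of 0 for 2, Insig1 and Acly. The other members have points on both sides of 0.

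These calls depended on the fit. Without the block the count fell from 3 to 0 when day 20 replicate 1 or 2, day 24 replicate 2 or day 28 replicate 2 of the untreated cultures, or day 20 replicate 1, day 24 replicate 1 or day 28 replicate 1 or 2 of the treated ones, was left out. It fell to 1 without untreated day 24 replicate 1, treated day 20 replicate 2 or treated day 24 replicate 2. The share of all genes called was 0.121% to 0.984% in these 12 fits. With the block the count stayed at 3 when 11 of the 12 libraries were left out in turn and was 4 without untreated day 28 replicate 2, which added Ebp (lower), and 2.56% to 6.33% of all genes were called. Transcripts of 9 liver genes summed to 48.8 CPM in treated day 20 replicate 2 and 123.5 in treated day 28 replicate 1, against 2.78 to 25.9 in the other reprogramming libraries. Without both libraries 0 members were called, where 0.0167% of all genes were, and with the block 3, where 2.87% were. Without the day 16 libraries, whose replicates differed most, 3 members were called, where 2.25% of all genes were. With the block 7 were called, the same 3 with Lss, Hsd17b7, Scap and Scd1 (all higher), where 13.5% of all genes were.

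Endoderm markers summed to 5445 to 7326 CPM in treated and 8077 to 9615 in untreated day 20 cultures, to 6462 to 7910 and 10040 to 13190 at day 24, and to 9199 to 10610 and 12240 to 17030 at day 28; their part in the effects on these genes was not tested. Of 30 other pathway genes 1 was called for the mean over days, Acacb, which rose by 0.67 ± 0.13 (adjusted p = 0.0483). With the block 5 were called, all higher, among them Acacb, the acetyl-CoA synthetase gene Acss2 (0.39 ± 0.07, adjusted p = 0.00895), the carbohydrate-responsive factor gene Mlxipl (0.63 ± 0.13) and the sterol exporter gene Abcg1 (0.59 ± 0.13).

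Set against day 16, treated day 28 cultures had 3 members called, 1 higher and 2 lower (17.1% of all genes, 10.5% higher and 6.67% lower), and 7 with the block (31.4%). Pmvk had 25.9 and 24.0 CPM at day 16 and 51.4 and 58.2 in treated day 28 cultures (1.18 ± 0.14, adjusted p = 0.000359). Insig1 had 142 and 133 CPM at day 16 and 74.6 and 86.3 in treated day 28 cultures (-0.73 ± 0.14, adjusted p = 0.00527), and Fasn had 298.5 and 355 CPM and then 187 and 229 (-0.61 ± 0.15, adjusted p = 0.0179). The block added Acat2, Lss, Nsdhl and Acaca, all lower. Both treated day 28 libraries lay below day 16 for 13 of the 18 sterol enzymes (27.2% of all genes did), and the median of the sterol enzymes was -0.23 against -0.49 without crotonic acid; both values share the day 16 libraries. Without treated day 28 replicate 1, and without both libraries that held liver transcripts, Pmvk was the only member called, where 7.99% and 6.7% of all genes were. Without day 16 replicate 2, 5 members were called, where 17.9% of all genes were.

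In the CiPS lines some members stood above day 28, led by Fasn and Hmgcs1, and others below it, led by Scd1, Scd2 and Stard4. Of 29 members 19 were called, 10 higher and 9 lower, against 59.5% of all genes, 29.1% higher and 30.4% lower, so the shares of members called higher and lower were near those of genes at large. Among the sterol enzymes Acat2, Hmgcs1, Mvd, Idi1, Lss and Cyp51 rose, and Pmvk, Hsd17b7, Ebp, Sc5d and Dhcr7 fell. Insig1 rose and Scap and Stard4 fell. Acaca, Fasn and Elovl6 rose, and Scd1 and Scd2 fell. Endoderm markers, 6 of 7 called lower and 1 higher, summed to 814 to 875 CPM in the CiPS lines against 12240 to 17030 at day 28. Fibroblast markers, 5 of 7 called higher and 1 lower, summed to 10470 to 15290 CPM against 1752 to 2107. Macrophage markers, 6 of 7 called higher, summed to 42.7 to 92.7 CPM against 15.7 to 18.7. The part of these markers in the member values was not tested.

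Fasn had 208 and 218 CPM in untreated day 28 cultures, 555 and 546 in the crotonic acid lines and 471 in the three-step line (1.30 ± 0.14, adjusted p = 4.14e-06). Hmgcs1 had 131 and 103 CPM at day 28, 278 and 266 in the crotonic acid lines and 369.6 in the three-step line (1.38 ± 0.16, adjusted p = 1.07e-05). Idi1 had 16.8 and 15.4 CPM at day 28 and 28.6, 29.5 and 26.8 in the lines (0.81 ± 0.13, adjusted p = 0.000168). Each of these was higher in 3 of 3 lines than in either culture, as were 14 of the 29 members in all. The share of all genes that did so is not given here. Acaca had 55.7 and 48.0 CPM at day 28 and 97.1, 89.4 and 96.9 in the lines (0.87 ± 0.14, adjusted p = 0.000219). Elovl6, which lengthens palmitate, had 139.6 and 153 CPM at day 28 and 269, 241 and 351 in the lines (0.97 ± 0.17, adjusted p = 0.000365).

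The genes that fell were led by Scd1, with 534 and 397 CPM at day 28 and 152, 132 and 150.0 in the lines (-1.69 ± 0.18, adjusted p = 5.94e-06). Scd2 had 1192 and 1050.2 CPM at day 28 and 576, 571 and 555.5 in the lines (-0.98 ± 0.12, adjusted p = 1.91e-05). Stard4, a carrier of sterols between membranes, had 121 and 134 CPM at day 28 and 62.8, 59.4 and 42.0 in the lines (-1.22 ± 0.16, adjusted p = 3.69e-05). In all 3 cases every line lay below both cultures, as for 10 of the 29 members in all, and the share of all genes is again not given. Srebf1 had 88.6, 84.7 and 85.8 CPM in the lines (-0.12 ± 0.15) and Srebf2 279, 267 and 292 (-0.05 ± 0.13), and neither was called against day 28. Insig1 had 166, 144 and 157 CPM in the lines against 119.5 and 121 (0.37 ± 0.12, adjusted p = 0.0199). Mvk, Fdps, Fdft1, Sqle, Tm7sf2, Msmo1, Nsdhl and Acly were not called.

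**Figure D5:**
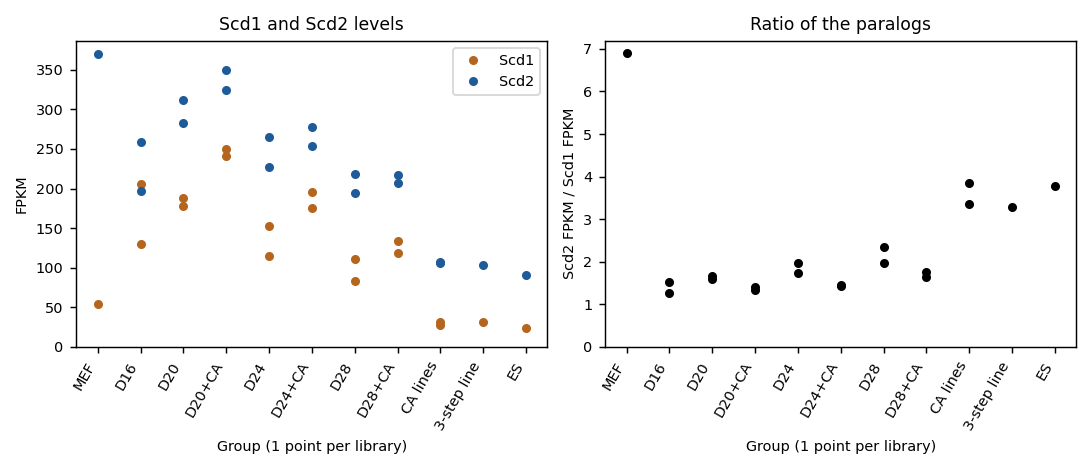
FPKM of the desaturase genes Scd1 and Scd2 in every library (left) and the ratio of Scd2 to Scd1 FPKM (right), 1 point per library. The ratio is 6.91 in MEFs, between 1.26 and 2.34 in the 14 reprogramming libraries, and between 3.28 and 3.84 in the CiPS and ES lines.

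The desaturases show the 3 states of the study side by side. Scd2 to Scd1 ratios in FPKM were 1.59 to 2.34 in untreated cultures from day 20 to 28 and 1.34 to 1.76 in treated ones, while the lines had 3.36, 3.84 and 3.28 and ES cells 3.78. In the lines both genes were low: Scd1 had 27.5 to 31.8 FPKM and Scd2 103 to 107 FPKM, against 53.5 and 370 FPKM in MEFs. Scd1 shares 91.4% identity over 1053 bases with Scd3, which had 2165 reads over all libraries against 262531 for Scd1. Scd2, with 526566 reads, shares 95.5% identity over 623 bases with Scd1 itself. Whether the 2 paralogs share reads, and whether that affects their ratio, was not tested.

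Set against MEFs, the lines were low across the sterol route. Of 29 members 23 were called, Elovl6 higher and 22 lower, against 53.1% of all genes, 25.7% higher and 27.4% lower. Of the sterol enzymes 16 fell, with a median log2 change of -1.28 against 0.021 over all genes; Tm7sf2 and Ebp were not called. Scap, Acaca, Fasn and Acly were not called, and all other regulators fell. This comparison rests on the same MEF library as that of day 16.

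Scd2 had 2036 CPM in MEFs and 576, 571 and 555.5 in the lines (-1.84 ± 0.14, adjusted p = 8.81e-07). Msmo1 had 180.1 CPM in MEFs and 55.3, 52.3 and 57.5 in the lines (-1.71 ± 0.14, adjusted p = 1.16e-06). Cyp51 had 384 CPM and then 115, 109 and 109 (-1.79 ± 0.16, adjusted p = 2.1e-06). For these genes the lines lay within a narrow range far below MEFs. Sc5d, which desaturates the sterol ring, had 90.1 CPM in MEFs and 33.8, 33.5 and 26.97 in the lines (-1.52 ± 0.15). Hsd17b7, a sterol keto-reductase, had 74.7 CPM in MEFs and 16.1, 18.3 and 20.4 in the lines (-2.03 ± 0.23), and it was also below day 28 (29.1 and 31.3 CPM). Sqle had 228 CPM and then 85.1, 86.0 and 77.8, Nsdhl had 56.7 and then 18.9, 18.6 and 20.1, and Lss had 120.4 and then 41.8, 37.6 and 40.5. Srebf1, with 167 CPM in MEFs, fell by 0.95 ± 0.18 on the log2 scale (adjusted p = 0.000686). Elovl6 had 100.1 CPM in MEFs and rose by 1.52 ± 0.23 (adjusted p = 0.000166).

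The median sterol enzyme stood at 41.3% to 42.1% of its MEF level in the 3 CiPS lines and 38.1% in ES cells, at 44.1% and 47.0% in the day 16 libraries and at 32.6% and 37.6% in the untreated day 28 libraries. For the fatty acid enzymes the median was 92.4% to 105% of the MEF level in the CiPS lines and 98.0% in ES cells. Within that group the range in ES cells ran from 23.9% (Scd2) to 267% (Elovl6). Macrophage markers summed to 158 CPM in ES cells, 148.7 in MEFs and 42.7 to 92.7 in the CiPS lines, and fibroblast markers to 16.2% to 24.4% of the MEF sum in all established lines; their part in these values was not tested. Of 31 other pathway genes 4 were called higher and 16 lower against MEFs, and 8 and 18 against day 28, with medians of -0.58 and -0.69. Mylip, which encodes a ubiquitin ligase, changed against day 28 by -3.07 ± 0.18 on the log2 scale (adjusted p = 3.03e-08), the cholesterol exporter gene Abca1 by -3.42 ± 0.29 (adjusted p = 6.7e-07) and Soat1 by -1.99 ± 0.17 (adjusted p = 6.55e-07). Fads1, a desaturase of polyunsaturated fatty acids, fell by 1.36 ± 0.10 (adjusted p = 1.69e-07).

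Between the CiPS lines and the ES line no member was called by edgeR, where 0.0204% of all genes were, and 3 had an unadjusted p under 0.05. Stard4 was the member with the smallest p, with 62.8, 59.4 and 42.0 CPM in the lines and 24.8 in ES cells (1.14 ± 0.23, adjusted p = 0.374). DESeq2 called it (adjusted p = 0.00456), where 0.0714% of all genes were called. So did edgeR without the three-step line (adjusted p = 0.0338), where 0.067% were. Pmvk had 25.9, 24.4 and 23.5 CPM in the lines and 18.6 in ES cells (0.40 ± 0.16), and Insig1 had 166, 144 and 157 CPM in the lines and 118 in ES cells (0.40 ± 0.16), neither called. Scd1 had 114 CPM and Scd2 487 CPM in ES cells, Srebf1 75.3 CPM and Srebf2 242 CPM, and none of these was called. With 1 ES library a p above the threshold does not show that these genes were alike.

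Lines made with crotonic acid and the three-step line had no member called by edgeR (0.122% of all genes were called, and 3 members had an unadjusted p under 0.05), nor by DESeq2. Stard4 had 62.8 and 59.4 CPM in the crotonic acid lines and 42.0 in the three-step line (0.54 ± 0.18, adjusted p = 0.374). Hmgcs1 had 278 and 266 CPM against 369.6 (-0.44 ± 0.16, adjusted p = 0.498), and Elovl6 had 269 and 241 CPM against 351 (-0.46 ± 0.19, adjusted p = 0.577). For each of these the lone three-step library lay outside the range of the other lines. With so few libraries many genes separate in this way by construction, so the separation does not set the 3 genes named apart. Dhcr7, Pmvk and Insig1, the members called with crotonic acid in culture, were not called: the differences were -0.19 ± 0.21 for Dhcr7, 0.10 ± 0.17 for Pmvk and -0.02 ± 0.17 for Insig1. In a fit of the 3 lines alone, where the spread came from the 2 crotonic acid lines, 6 members were called: Sc5d, Stard4, Fasn and Acly higher and Hmgcs1 and Elovl6 lower in the crotonic acid lines. In that fit 20.1% of all genes were called, a share near that of the members.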

How the data were processed

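Per the labels' protocols, a Qiagen RNA mini kit gave the RNA and the NEBNext Ultra RNA kit the libraries. The deposited table of whole-number read counts per Ensembl gene and the deposited FPKM table, values per kilobase scaled by the authors, were used; neither the aligner and counter nor the build and gene models are given in the sources used here. Of the columns of per-sample values 1 matched no label and was not used, so 19 of 20 samples were analysed.

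The quasi-likelihood F test of edgeR 4.0.16 (R 4.3.3) was applied to the counts (TMM factors, filterByExpr with a minimum count of 10, 2-sided). The 14 reprogramming libraries were fitted together over 17387 genes. Comparisons with MEFs, CiPS lines and ES cells used all 19 libraries over 19597 genes, the lines merged or, for the comparison by method, split. All 29 members passed the filter in every fit. Groups of 1 library borrow their spread from the replicated groups. The biological coefficient of variation was 23.0%, 22.2% and 21.7% in these fits. Replicates differed by more than counting noise in all groups (chi-squared per degree of freedom 5.18 in the crotonic acid lines to 101 at day 16).

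Replicate numbers were checked for pairing: deviations from the group means correlated between groups at 0.258 to 0.578 in all 21 pairs of groups, so values from a fit blocked on replicate number (coefficient of variation 14.3%) are printed where they change a call.

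The members and gene lists were chosen with earlier results of these data known. Every member is named; values per library are given for up to 8 called members of smallest p, or the 3 of smallest p where none was called, and for Srebf1, Srebf2, Insig1, Scd1 and Scd2. Of the 31 other pathway genes up to 4 of smallest p are named, except some that are not reported here. Simulated counts with known changes served as a check: of 100 genes changed 2-fold and 100 changed 4-fold, 26% and 81% were recovered for day 16 against MEFs, 38% and 94% for day 28 against day 16, 42% and 89% for crotonic acid at day 28, and 85% and 98% for its mean over days, with 4 to 11 false calls among 17000 to 18470 genes. The changed genes were drawn from the better counted ones, and replicates were simulated as independent. The rates therefore do not cover weakly counted members such as Fdps, or the pairing of replicates. Other settings tried were size factors by RLE or by total counts, all genes kept, DESeq2 1.42.0, limma-voom and limma (3.58.1) on log2(FPKM + 1) and log2(FPKM + 0.1) where the mean FPKM was 1 or more. A 2-fold minimum change, fits of only the groups compared, fits with 1 library removed and the block were also run. Fits without the day 16 libraries, without both libraries that held liver transcripts, and with the block and 1 library left out were added after the data were seen. Possible sharing of reads was judged on GRCm38 annotation, which may differ from the annotation behind the counts. RefSeq promoter windows were from GRCm38.p6, and 6 members without one have no promoter shown.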

Additional observations from a re-analysis of the deposited data

How the results depend on the processing

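The 87 results on single members followed here were picked because they were called in the main fit (76 of them) or with the block. No alternative reversed a direction, but the alternatives reuse the same libraries, so a reversal was unlikely from the outset. The call was lost for 47 of them with a 2-fold threshold and for 27 in fits of only the groups compared. With a 2-fold threshold the counts were 0 at day 20 and 0 at day 28 against day 16, 1 for treated day 28 against day 16, 0 for the mean effect of crotonic acid, 4 for the CiPS lines against day 28 and 12 against MEFs. The shares of all genes were 1.92%, 11.8%, 11.7%, 0.449%, 39.6% and 38.8%, in the same order. The count against MEFs was thus near the share of all genes, and the count against day 28 was below it. In fits of the compared groups alone they were 3 for day 16 against MEFs, 0 for days 20 and 28 against day 16, 1 for treated day 28 against day 16 and 6 for lines by method. Of all genes, 10.8% were called there for day 16, 0% and 2.46% for days 20 and 28. The shares were 6.26% for treated day 28 and 20.1% for lines by method. DESeq2 called 1 member at day 24 against day 16, 5 for treated day 28 against day 16, 1 and 2 for crotonic acid at days 24 and 28, and 1 for CiPS lines against ES cells. Of all genes it called 12.3%, 21%, 0.449%, 0.443% and 0.0714%, in the same order. With the replicate block the pairing gave 1 member at day 24 against day 16, 14 at day 28, 7 for treated day 28 and 1 for crotonic acid at day 28; it changed no other count of calls. Leaving out 1 library at a time gave 0 to 1 at day 20, 0 to 2 at day 24, 1 to 9 at day 28 and 1 to 5 for treated day 28 against day 16, 0 to 3 for the mean effect of crotonic acid (3 to 4 with the block), and 0 to 1 for CiPS lines against ES cells. Without the libraries that held liver transcripts the counts were 3 at day 28 against day 16, 1 for treated day 28 and 0 for the mean effect of crotonic acid, and with the block 1 at day 24. Of all genes 12.1% were called for day 28 against day 16 in that fit, and 14.9% for day 24 with the block. Without day 16, and with the block, crotonic acid gave 2 members at day 24, 3 at day 28 and 7 for the mean. There 2.21%, 2.77% and 13.5% of all genes were called. The cause of these shifts was not tested, except that fits of few libraries have few residual degrees of freedom by construction. Counts for day 16 against MEFs otherwise lay between 12 and 20, where 18.2% to 39.6% of all genes were called. Fdps had 843 reads over all libraries, so its values are imprecise.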

Other observations

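The ratio of Srebf2 to Srebf1 FPKM was 2.65 in MEFs, 2.31 to 2.80 in untreated cultures of days 16 to 24 and 2.33 to 2.96 in treated cultures of days 20 and 24. It was 3.04 and 3.94 in untreated and 3.52 and 3.34 in treated day 28 cultures, and 3.56 to 3.84 in the CiPS and ES lines.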
